A study of Mus musculus with 192 samples.

Results

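The major histocompatibility complex (MHC) class II presentation genes were taken by gene name as 9 members of the 54752 genes in the expression table. They were H2-Aa, H2-Ab1 and H2-Eb1, which encode chains of the class II molecules themselves, Cd74 (the invariant chain), H2-DMa and H2-DMb1 (the DM peptide editor), H2-Oa and H2-Ob (the DO inhibitor of DM) and Ciita (the class II transactivator). RNA was sequenced from 9 tissues of C57BL/6 male mice that were either wild type (WT) or carried a knockout of Nrf2, the stress-response transcription factor encoded by Nfe2l2, in every tissue (KO; Nrf2KO in the labels). FL_WT and FL_KO mice had lived on the International Space Station and were dissected after splashdown, and GC_WT and GC_KO mice went through a later ground simulation in the same individual cages. All were labelled as 12 weeks old. Flight and ground mice were dissected at different times and in different laboratories, so flight cannot be told apart from those differences. Of 192 libraries, 184 were used, and the 8 libraries of flight mouse 04, a KO mouse with intestinal hemorrhage, were left out.

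The lymphoid tissues were thymus (Thy) and spleen (Spl). The others were liver (Liv), kidney (Kid), cerebrum (Cbr), the white fat of the epididymis (eWAT), the brown fat between the shoulder blades (iBAT), and bone from the mandible (MdB) and the temporal region (TpB). Kid had 3 mice per group, and MdB 3 per group but 2 in FL_KO. The other 7 tissues had 6 mice in each of GC_WT, FL_WT and GC_KO and 5 in FL_KO. Assigned counts were 8007523 to 10564704 per thymus library, which was made from rRNA-depleted total RNA, and 13110740 to 16308175 per library elsewhere, made from poly(A) RNA. Nfe2l2 itself was lower in KO than in WT mice without overlap in 9 of 9 tissues, at 28.2% to 47.9% of the WT mean in 8 of them and at 82.0% in Spl. The libraries that stood apart were 3 iBAT libraries with summed skeletal muscle transcripts of 2814 to 7228 TPM (length-normalized transcript abundance scaled to an equal total per library), the GC_WT mouse 07 liver with 139.6 TPM of tooth transcripts, and the FL_WT mouse 03 eWAT with 97.35 TPM of B cell transcripts.

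Class II molecules carry peptides from endocytosed protein to the surface of B cells, dendritic cells, macrophages and thymic epithelium, where CD4 T cells read them, and in the thymus they select those T cells. The invariant chain fills the groove during transport, endosomal proteases trim it to a short remnant, and DM exchanges that remnant for antigenic peptide while DO holds DM back. CIITA binds no DNA of its own and acts through RFX, CREB and NF-Y factors on the X and Y boxes upstream of class II genes, and interferon gamma induces it in many other cell types.

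7 of the 9 members lie within 224 kb of chromosome 17 (GRCm38). In order along it they were H2-Oa (chr17:34092340-34095234, plus strand), H2-DMa (chr17:34119541-34139101, plus), H2-DMb1 (chr17:34153072-34160230, plus), H2-Ob (chr17:34238903-34254414, plus), H2-Ab1 (chr17:34257689-34269419, plus), H2-Aa (chr17:34282744-34287823, minus) and H2-Eb1 (chr17:34305867-34316674, plus). Ciita was at chr16:10480059-10528418 on the plus strand, and Cd74 lies on another chromosome. All 9 are annotated as protein coding, and the values were summed over the whole gene. H2-DMa shares 3094 bases with the oppositely transcribed Brd2, a bromodomain gene, and H2-Eb1 overlaps the antisense gene Gm20513. The kit marks strand, but the strand setting of the counting is not given in the sources used here, so reads in these stretches may be shared. H2-DMb1 has a near-identical neighbour, H2-DMb2, and the split of reads between these genes is uncertain.

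Promoter sequence from RefSeq (GRCm38.p6) was matched for 6 of the 9 members. The 120 bases before the RefSeq start are shown because several of these genes moved together in thymus and liver. How alike the proximal promoters are was not measured. For H2-Oa, H2-DMa, H2-DMb1 and H2-Ob the RefSeq start lies inside the gene span given above, so their windows run into that span. Distances below are from the RefSeq start. Capitals mark matches on either strand to the Y box core GATTGG, or to AACNNATGATG, the run of 11 bases upstream of that core with the most letters in common to H2-DMb1, H2-Ob and H2-Eb1. It covers part of the X box, and these 3 genes were picked for it after the sequences were seen. The windows were chr17:34092259-34092378 for H2-Oa, chr17:34153071-34153190 for H2-DMb1, chr17:34238785-34238904 for H2-Ob, chr17:34287824-34287943 (minus strand) for H2-Aa, chr17:34305747-34305866 for H2-Eb1 and chr17:34122712-34122831 for the first start of H2-DMa.
H2-Oa: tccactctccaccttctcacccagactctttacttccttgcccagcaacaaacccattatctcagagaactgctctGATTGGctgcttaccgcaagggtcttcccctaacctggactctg
H2-DMb1: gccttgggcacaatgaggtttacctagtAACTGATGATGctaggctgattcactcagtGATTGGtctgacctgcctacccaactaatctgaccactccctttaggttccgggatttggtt
H2-Ob: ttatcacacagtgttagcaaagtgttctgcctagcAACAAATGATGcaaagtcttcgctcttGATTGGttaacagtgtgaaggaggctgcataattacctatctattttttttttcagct
H2-Aa: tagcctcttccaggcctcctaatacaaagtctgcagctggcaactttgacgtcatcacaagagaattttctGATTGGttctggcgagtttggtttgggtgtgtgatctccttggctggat
H2-Eb1: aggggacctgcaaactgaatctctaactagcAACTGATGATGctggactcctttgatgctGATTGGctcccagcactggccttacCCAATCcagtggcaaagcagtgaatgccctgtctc
H2-DMa: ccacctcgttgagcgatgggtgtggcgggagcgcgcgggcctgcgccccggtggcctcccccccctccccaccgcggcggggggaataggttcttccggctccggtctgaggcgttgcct

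GATTGG stood 44 bases before the start in H2-Oa, 49 in H2-Aa, 58 in H2-Ob, 60 in H2-Eb1 and 62 in H2-DMb1. A second copy, on the other strand, lay 35 bases before the start of H2-Eb1. AACNNATGATG stood 85 bases before the start in H2-Ob, 89 in H2-Eb1 and 92 in H2-DMb1. Of 32851 windows of the 250 bases before a start, searched on both strands, 14.6% held GATTGG and 0.119% held AACNNATGATG. The X letters followed by the Y core within 15 to 25 bases occurred in 4 windows, 0.0122% of all. These were the windows of H2-DMb1, H2-Ob, H2-Eb1 and the paralog H2-DMb2. The X letters were taken from H2-DMb1, H2-Ob and H2-Eb1 themselves, so their presence there is no test of a shared promoter. The 120 bases before the first start of H2-DMa held no match to these letters. RefSeq gives H2-DMa a second start, where GATTGG stood 199 bases upstream, outside the 120 bases.

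In GC_WT mice every member was highest in Spl, the tissue richest in B cells (plot of levels by tissue). Levels below are TPM, which is per transcript length and can be compared between genes. Cd74 led with 11554 ± 964.8 TPM in Spl (mean ± SD, n = 6), followed by H2-Ab1 with 3042 ± 225.9, H2-Aa with 2039 ± 131.3 and H2-Eb1 with 2026 ± 118.1 TPM. The editors and regulators formed a second tier in Spl, with 269.9 ± 27.5 TPM for H2-Ob, 258.0 ± 32.2 for H2-DMb1, 229.3 ± 11.8 for H2-DMa, 178.3 ± 18.9 for H2-Oa and 148.2 ± 9.68 for Ciita.

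The order of tissues below Spl was shared by Cd74, H2-Aa, H2-Ab1 and H2-Eb1 apart from neighbours with overlapping ranges. Cd74 fell from 838 ± 77.8 TPM in eWAT and 637 ± 66.3 in Thy, whose ranges overlapped, to 412 ± 73.4 in TpB, 252 ± 16.7 in Kid (n = 3) and 177 ± 2.11 in MdB (n = 3), and these last steps did not overlap. Liv, with 69.7 ± 25.1 TPM, and iBAT, with 61.0 ± 19.6, overlapped, and Cbr was lowest with 6.58 ± 1.44 TPM. The H2-Ab1 range in Thy (308.7 to 414.6 TPM) overlapped that in eWAT (252.9 to 330.1). The place of Thy depends on the scale, because its libraries hold other RNA classes: rescaled to genes other than ribosomal protein, mitochondrial and small RNA genes, Cd74 was 1716 in Thy against 998 in eWAT and 13516 in Spl.

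**Figure D1:**
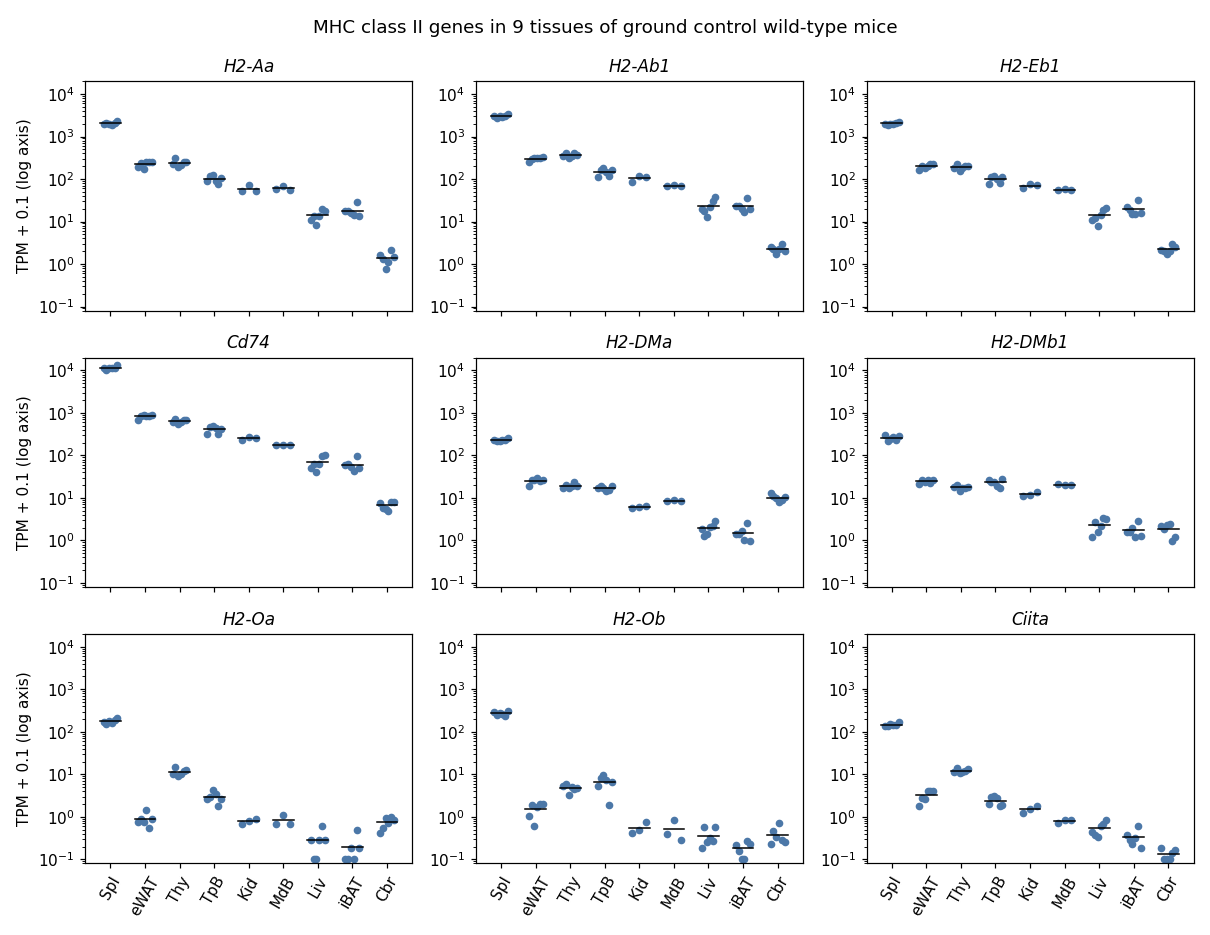
Levels of the 9 class II genes in the 9 tissues of GC_WT mice, as TPM + 0.1 on a log axis, with 1 point per mouse and a line at the mean. Every gene was highest in Spl, and H2-DMa in Cbr (8.11 to 12.81 TPM) stood above its level in Liv and iBAT, unlike Cd74 and the class II chains.

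The DO genes and Ciita were more restricted. H2-Oa fell from 178.3 TPM in Spl to 11.4 ± 1.95 in Thy and 2.84 ± 0.82 in TpB, without overlap, and was below 0.8 TPM on average in the other 6 tissues. H2-Ob was at 6.37 ± 2.64 TPM in TpB and 4.65 ± 0.87 in Thy, which overlapped, and at 1.44 ± 0.58 in eWAT. Ciita was at 12.0 ± 1.41 TPM in Thy, 3.11 ± 0.97 in eWAT and 2.31 ± 0.57 in TpB, and it was listed at 0 to 0.08 TPM in Cbr. Because of these low levels H2-Oa passed the filter on low counts in 3 tissues (TpB, Spl, Thy), H2-Ob in 6, Ciita in 8 and the other 6 members in all 9, which gave 71 pairs of gene and tissue that were tested.

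The ratios between partners differed by tissue. The ratio of H2-Oa to H2-DMa, as a measure of DO against DM transcripts, was 0.777 ± 0.058 in Spl and 0.587 ± 0.083 in Thy of GC_WT mice, 0.170 ± 0.052 in TpB and at most 0.114 on average in the other tissues. The ratio of H2-Ob to H2-DMb1 was 1.05 ± 0.077 in Spl, 0.276 ± 0.115 in TpB and 0.263 ± 0.030 in Thy. The second DM beta gene, H2-DMb2, was at 566.3 ± 47.2 TPM in Spl and 22.1 ± 4.39 in Thy and is not in that ratio. Against the sum of H2-DMb1 and H2-DMb2, H2-Ob was at 0.328 ± 0.019 in Spl, 0.203 ± 0.071 in TpB and 0.118 ± 0.016 in Thy. Cd74 exceeded H2-Ab1 by 3.80 ± 0.095 times in Spl and by 1.74 ± 0.038 times in Thy of GC_WT mice.

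H2-DMa was an exception in Cbr, where it reached 10.1 ± 1.71 TPM, ahead of MdB (8.58 ± 0.41, overlapping), Kid, Liv and iBAT. Its ratio to H2-Ab1 was 4.75 ± 1.14 in Cbr and between 0.053 and 0.123 in the other 8 tissues. The partner chain H2-DMb1 was at 1.73 ± 0.61 TPM in Cbr. Brd2, which shares bases with H2-DMa, was at 127.7 to 158.1 TPM in the same 6 Cbr libraries, and at 48.0 to 61.4 TPM in Liv, where H2-DMa was at 1.19 to 2.72 TPM. Whether reads of Brd2 entered the H2-DMa value was not tested.

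The comparison of flight with ground mice of the same genotype asks which changes followed space flight. It was fitted with edgeR's quasi-likelihood test on counts, in each tissue on its own, with Benjamini-Hochberg adjustment over all genes tested there, and adjusted p under 0.05 counted as a call. In WT mice 5 of the 71 pairs were called higher and 7 lower, all of them in Thy, Liv and Spl. Over all genes in the 9 tissues 3.23% of pairs were called higher and 3.32% lower. In KO mice 9 were called higher and 7 lower, in Thy, Liv, eWAT and Spl, against 4.43% and 4.48% of pairs over all genes. The map of fold changes shows a rise in Thy and a fall in Liv in both genotypes. In bulk tissue fewer cells of a type and less RNA per cell cannot be told apart, for these and all later results.

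**Figure D2:**
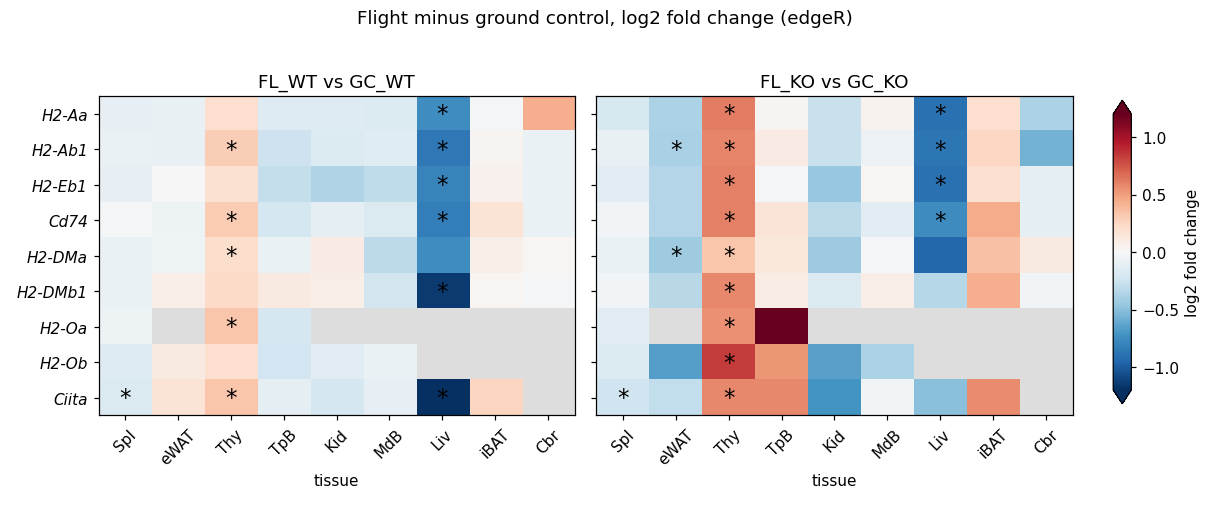
Log2 fold change of flight over ground mice for each class II gene (rows) and tissue (columns), for WT on the left and KO on the right; stars mark adjusted p under 0.05 and grey cells genes under the filter on low counts. Calls above 0 were in Thy (5 in WT and 9 in KO) and calls below 0 were in Liv, Spl and, in KO, eWAT.

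In Thy of WT mice Cd74, the invariant chain, ranged from 536 to 710 TPM in GC_WT (median 637) and from 740 to 1190 TPM in FL_WT (median 926). The lowest flight mouse was above the highest ground mouse. Its log2 fold change was 0.31 ± 0.074 (SE; edgeR adjusted p = 0.00414). Ciita, the transactivator, was at 10.5 to 14.1 TPM (median 11.6) in GC_WT and at 15.8 to 19.8 TPM (median 18.5) in FL_WT, again without overlap, with a change of 0.34 ± 0.076 (adjusted p = 0.00264). H2-Ab1, the beta chain of I-A, was at 308.7 to 414.6 TPM (median 357.9) on the ground and 416.6 to 672.0 TPM (median 524.0) in flight, and here the ranges just failed to touch (0.29 ± 0.074, adjusted p = 0.0057).

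H2-Oa (0.34 ± 0.11, adjusted p = 0.023) and H2-DMa (0.21 ± 0.067, adjusted p = 0.0258) were also called higher in FL_WT, with overlapping ranges. The other members lay between 0.19 and 0.23 and were not called, namely H2-Aa (adjusted p = 0.0643), H2-Eb1 (0.0796), H2-DMb1 (0.0876) and H2-Ob (0.161). Of all 16307 genes tested in this comparison 11.8% were called higher, against 5 of 9 members, and 15.7% were higher without overlap of TPM, against 3 of 9. The count was 3 without FL_WT mouse 05, FL_WT mouse 06, GC_WT mouse 03 or GC_WT mouse 06, and 8 without GC_WT mouse 05. On the TPM scale itself, where the median of all genes also shifted by 0.19 in both genotypes, limma called 9 of 9. The share of all genes that limma called there is not given here, so this count cannot be set against it.

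In Thy of KO mice the 9 members were all called higher, where 19.3% of the genes tested were, and no member overlapped between groups, where 19.4% of genes were higher without overlap. Cd74 was at 482 to 695 TPM (median 595) in GC_KO and at 1071, 1054, 1066, 1126 and 958 TPM in the 5 FL_KO mice. The change was 0.61 ± 0.077 (edgeR adjusted p = 2.96e-06). H2-Ob, the beta chain of DO, was at 2.51 to 4.06 TPM (median 3.38) in GC_KO and at 6.85, 8.27, 7.78, 6.65 and 7.05 TPM in FL_KO. At 0.84 ± 0.11 (adjusted p = 4.83e-06) it had the largest change of the 9 in this tissue.

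Ciita was at 8.06 to 12.3 TPM (median 10.8) in GC_KO and at 19.95, 17.1, 17.6, 18.9 and 18.3 TPM in FL_KO (0.58 ± 0.081, adjusted p = 7.42e-06). H2-Aa (0.62 ± 0.083), H2-Eb1 (0.60 ± 0.080), H2-Ab1 (0.59 ± 0.077) and H2-DMb1 (0.58 ± 0.11) rose by similar amounts, with adjusted p of 5.47e-06, 4.43e-06, 4.1e-06 and 0.00015. H2-Oa rose by 0.55 ± 0.11 (adjusted p = 0.000471), and H2-DMa least, by 0.33 ± 0.071 (adjusted p = 0.000807). The 9 calls held with each mouse left out in turn and with DESeq2 and limma. The median change of the members was 0.59, and that of all genes -0.0081.

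**Figure D3:**
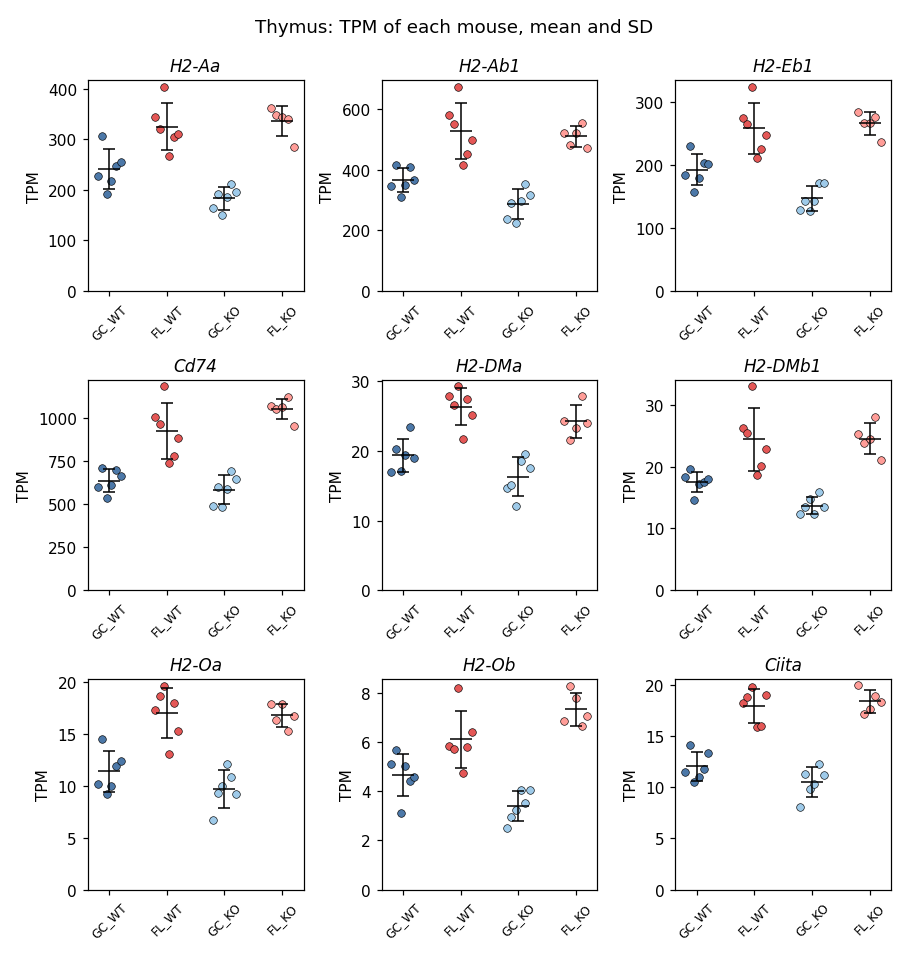
TPM of each class II gene in the thymus of each mouse, with 1 point per mouse and the mean and SD of each group of 6 mice (5 in FL_KO). The FL_KO points lie above all GC_KO points in each of the 9 panels, and the FL_WT points above all GC_WT points for H2-Ab1, Cd74 and Ciita.

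The paralogs moved the same way in Thy: H2-DMb2 was higher by 0.37 in WT (adjusted p = 0.015) and 0.63 in KO (adjusted p = 0.000132), and H2-Eb2 by 0.33 (adjusted p = 0.0442) and 1.06 (adjusted p = 1.05e-06). H2-Ea-ps, annotated as a polymorphic pseudogene and the alpha chain locus of I-E, was listed at 0 in every GC_WT thymus. Over all tissues it reached at most 0.23 TPM, in Spl of GC_WT mouse 03. Whether H2-Eb1 protein forms a class II molecule here was not tested. Of 26 accessory genes of the pathway, 24 were tested in Thy, of which 9 were called higher and 5 lower in WT and 12 higher and 7 lower in KO. Of all genes tested in Thy, 11% were called lower in WT and 18.9% in KO. Those called higher included Lgmn (0.59 in WT and 0.81 in KO) and Ctss (0.36 and 0.86), the proteases legumain and cathepsin S that trim the invariant chain, and March8 (0.43 and 0.52) and March1 (0.37 and 0.50), ubiquitin ligases that remove class II from the surface. Ifngr1, the ligand-binding chain of the interferon gamma receptor, was at -0.55 and -0.65 and was called lower in both genotypes.

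The factors that bind the X and Y boxes were not higher in flight thymus. Of 7, 4 were called lower in WT and 6 in KO, with Creb1 at -0.28 in both and the NF-Y subunit Nfyc at -0.20 in WT and -0.34 in KO, and Rfx5, named after its values were seen, was at -0.014 and -0.0053 (adjusted p = 0.912 and 0.964). Among 11 MHC class I genes, 4 were called higher and 1 lower in WT and 6 higher and 2 lower in KO. Nlrc5, the class I counterpart of CIITA, was higher by 0.42 (adjusted p = 0.00492) in WT and 0.88 (adjusted p = 2e-06) in KO, and H2-K1 by 0.34 and 0.65. Tap2, a subunit of the peptide transporter, was at -0.27 in WT and -0.21 in KO and was called lower in both.

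Markers of several cell types moved with the members in Thy (plot of marker lists). T cell markers were called lower in 5 of 6 (WT) and 6 of 6 (KO), with Cd8b1 at -0.58 and -0.77, and their summed level was 1719 to 2034 TPM in GC_WT, 1391 to 1748 in FL_WT, 1371 to 2009 in GC_KO and 1243 to 1374 in FL_KO. Macrophage markers were called higher in 4 of 9 and 9 of 9, with summed ranges of 233.5 to 322.6, 309.8 to 605.4, 172.7 to 264.9 and 341.5 to 449.4 TPM in the same order. Thymic epithelial markers were called higher in 4 and 7 of 10, with sums of 518.8 to 675.5, 766.5 to 1077, 371.2 to 626.8 and 665.3 to 797.8 TPM. Thymocyte markers were called lower in 3 of 4 in both genotypes, among them the recombinase gene Rag1 (-0.35 and -0.57), with sums of 1472 to 1753, 1251 to 1543, 957.4 to 1576 and 952.1 to 1090 TPM.

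B cell markers were called higher in 3 of 9 in WT and 7 of 9 in KO, and their summed level, at 20.3 to 27.0 TPM in GC_WT, 27.7 to 36.5 in FL_WT, 15.1 to 26.9 in GC_KO and 28.3 to 39.9 in FL_KO, did not overlap between flight and ground. All marker sums in Thy are on the TPM scale, where the median of all genes was itself 0.19 higher in flight in both genotypes. Of single genes, 15.7% in WT and 19.4% in KO were higher there without overlap. Of 9 dendritic cell markers 1 was called higher and 2 lower in WT (Siglech at -0.66 and Cd209a at -0.70), and 6 higher in KO, among them Ccr7 (0.88), with sums of 28.9 to 45.3, 39.7 to 56.8, 20.7 to 29.6 and 39.4 to 55.8 TPM. Of 4 lymph node markers 2 were tested, and Ccl19, a chemokine of lymph node stroma and thymic medulla, was called higher in WT (0.63) and KO (1.27) and Ccl21a in KO (0.94), with sums of 90.3 to 153.3, 132.3 to 223.1, 61.3 to 147.9 and 172.9 to 257.8 TPM. Among all these lists only Glycam1, of the lymph node list, was at 0 in a whole group, in GC_KO. The part of these cell types and of adhering tissue in the class II result was not tested.

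**Figure D4:**
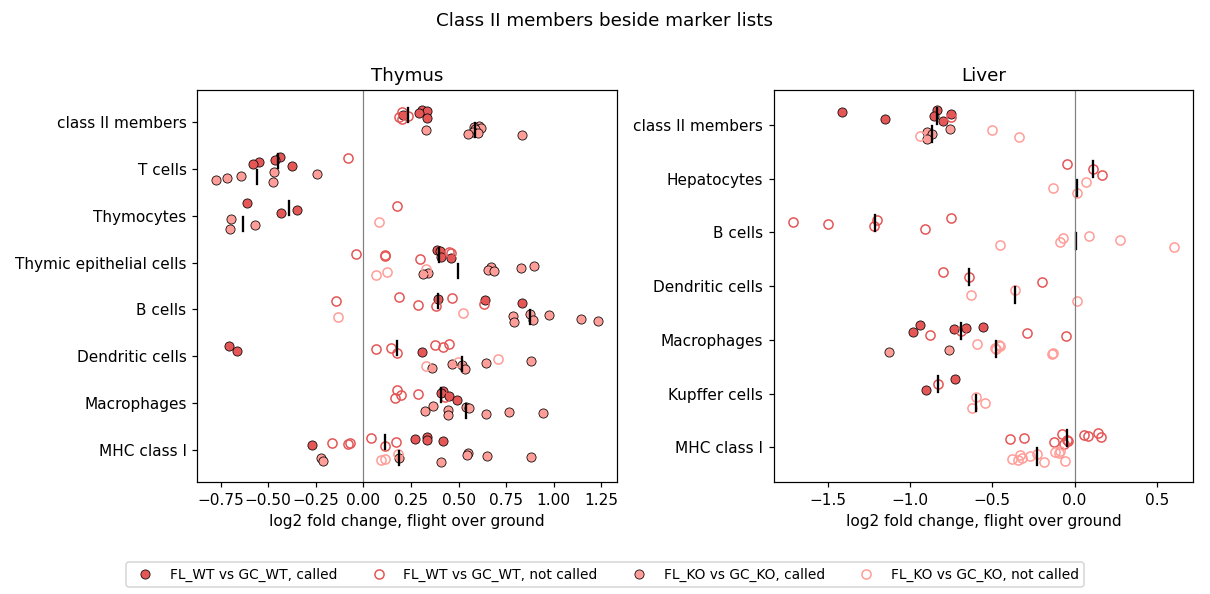
Log2 fold change of flight over ground mice for the class II genes and for each gene of the marker and MHC class I lists, in thymus and liver, with WT and KO in 2 shades, filled points for called genes and a bar at each list's median. In Thy the class II genes (medians 0.23 and 0.59) lie with the macrophage, B cell and epithelial markers and opposite the T cell markers; in Liv they lie below 0 with the macrophage and Kupffer cell markers.

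In Liv the members were lower in flight. 7 of them passed the filter there, and 6 were called lower in WT, where 1.91% of 13433 genes tested were called lower. Cd74 was at 41.7 to 103 TPM (median 63.0) in GC_WT and at 29.5 to 49.0 TPM (median 40.9) in FL_WT. The groups overlapped through 1 ground mouse, mouse 06 at 41.7 TPM, which lay below 3 of the 6 flight mice. The change was -0.83 ± 0.19 (edgeR adjusted p = 0.0149).

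H2-DMb1, the DM beta chain, was at 1.09 to 3.19 TPM (median 2.38) in GC_WT livers and at 0.61 to 1.51 TPM (median 1.04) in FL_WT livers, with a change of -1.15 ± 0.24 (adjusted p = 0.0112). Ciita was at 0.24 to 0.73 TPM (median 0.43) and 0.09 to 0.27 TPM (median 0.16), a change of -1.41 ± 0.31 (adjusted p = 0.0146). These were the largest falls in WT livers, both at low levels. H2-Ab1 was at 12.7 to 38.7 TPM (median 20.5) and 8.84 to 16.7 TPM (median 13.7), a change of -0.85 ± 0.20 (adjusted p = 0.0176).

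H2-Eb1 (-0.80 ± 0.22, adjusted p = 0.0431) and H2-Aa (-0.75 ± 0.21, adjusted p = 0.049) were near the threshold, and H2-DMa, at -0.75 ± 0.26, missed it (adjusted p = 0.115). All 7 pairs of ranges overlapped. The count of 6 fell to 4 without any of FL_WT mice 03, 05, 06, 08 or 10 or GC_WT mice 05, 07, 08 or 10, and rose to 7 without FL_WT mouse 07. GC_WT mouse 07 is the liver with the tooth transcripts. Ciita, Cd74, H2-Ab1 and H2-DMb1 were called with each of the 23 mice left out, while limma on log2(TPM + 1) tested 4 members and called 2, Cd74 and H2-Ab1.

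In KO livers 4 of 7 members were called lower, where 2.02% of genes were. H2-Ab1 was at 23.0 to 38.1 TPM (median 29.8) in GC_KO and at 21.3, 21.3, 13.8, 18.7 and 16.0 TPM in FL_KO, without overlap, as was the case for 0.64% of genes in this direction (-0.87 ± 0.21, adjusted p = 0.0192). Cd74 was at 79.9 to 125 TPM (median 93.5) in GC_KO and at 87.8, 63.9, 52.8, 63.4 and 46.5 TPM in FL_KO (-0.76 ± 0.20, adjusted p = 0.0328). Of the flight mice, 4 were below every ground mouse and mouse 01 was within the ground range.

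H2-Aa (-0.90 ± 0.22, adjusted p = 0.0215) and H2-Eb1 (-0.90 ± 0.22, adjusted p = 0.0265) were the other calls in KO livers. H2-DMa was at -0.94 ± 0.27 (adjusted p = 0.0515), Ciita at -0.50 ± 0.32 (adjusted p = 0.494) and H2-DMb1 at -0.34 ± 0.23 (adjusted p = 0.547). No call was left without FL_KO mouse 09 or FL_KO mouse 12, and 2 were left without FL_KO mouse 02, GC_KO mouse 04 or GC_KO mouse 12. A fit of the GC_KO and FL_KO livers alone called 1.

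**Figure D5:**
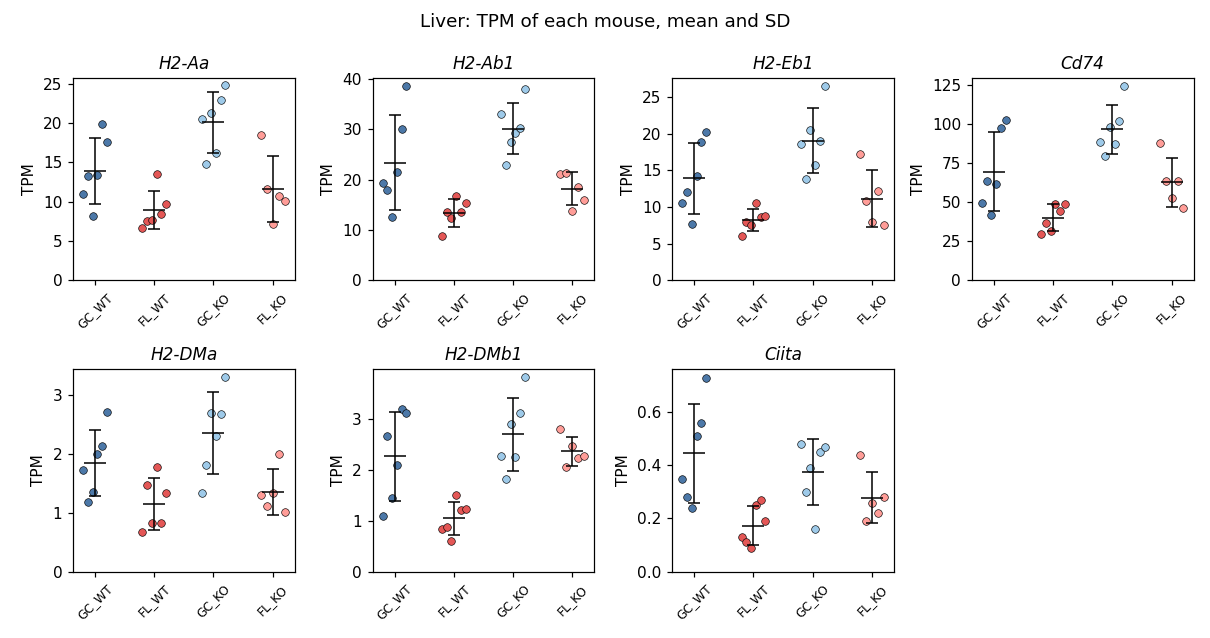
TPM of each class II gene in the liver of each mouse, with 1 point per mouse and the mean and SD of each group of 6 mice (5 in FL_KO). For H2-Ab1 the 5 FL_KO points (13.8 to 21.3 TPM) lie below all GC_KO points, and for H2-DMb1 the 5 FL_KO points (2.05 to 2.80 TPM) lie above all FL_WT points.

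Macrophage markers moved with the members in Liv. In WT 5 of 9 were called lower, among them the receptor gene Csf1r (-0.98, adjusted p = 0.0111) and the complement gene C1qc (-0.73, adjusted p = 0.0251), and in KO 2 of 9, Csf1r (-0.76) and Fcgr1 (-1.13). Their summed level was 97.1 to 203.1 TPM in GC_WT, 67.1 to 130.2 in FL_WT, 130.7 to 223.4 in GC_KO and 110.6 to 170.7 in FL_KO, with overlap in both genotypes. Of 3 Kupffer cell markers, the resident macrophages of the liver, Clec4f (-0.73) and Vsig4 (-0.90) were called lower in WT and none in KO, where the 3 were at -0.54 to -0.62. Of 5 erythroid markers 3 were tested, and 2 were called lower in WT (Hba-a1 at -1.36 and Hbb-bt at -1.40) and 1 in KO (Alas2 at -0.69), with sums of 174.6 to 251.4 TPM in GC_WT, 107.1 to 155.2 in FL_WT, 183.7 to 295.5 in GC_KO and 102.5 to 226.0 in FL_KO. None of the macrophage, Kupffer cell or erythroid markers was at 0 in a whole liver group, and their part in the result was not tested.

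Of 22 accessory genes tested in Liv, Ctss was called lower in WT (-0.69, adjusted p = 0.021) and Ifi30, the thiol reductase that unfolds antigen, in KO (-0.45, adjusted p = 0.0331), and none was called higher. None of the 11 class I genes was called by edgeR in either genotype, with medians of -0.043 and -0.23 against -0.83 and -0.87 for the class II members. The differences between class I and class II genes were not tested. B cell markers summed to 1.29 to 7.31 TPM in GC_WT, 0.81 to 2.12 in FL_WT, 1.36 to 5.47 in GC_KO and 1.43 to 8.45 in FL_KO, and none was called.

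In Spl 1 of the 9 members was called in each genotype. Ciita was at 140 to 166 TPM (median 146) in GC_WT and at 125.3 to 135.8 TPM (median 130.0) in FL_WT, without overlap, as for 0.594% of genes in this direction, a change of -0.18 ± 0.045 (edgeR adjusted p = 0.0432), where 1.11% of genes were called lower. In KO it was at 120.9 to 145.3 TPM (median 136.9) and at 97.8, 118.2, 123.0, 104.8 and 107.7 TPM, a change of -0.24 ± 0.048 (adjusted p = 0.0166), where 0.513% of genes were called lower. Only FL_KO mouse 09 reached the ground range.

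The WT call in Spl was lost without any of FL_WT mice 03, 05, 06 or 08 or GC_WT mice 05, 06, 07, 08 or 10, and the KO call without FL_KO mouse 01 or GC_KO mouse 09. The WT call was also lost with limma at either pseudocount and with no filter on low counts, and the KO call with the groups of the contrast alone. The other 8 members were between -0.025 and -0.15 in WT and -0.032 and -0.19 in KO. Erythroid transcripts fell in the same spleens, with 5 of 5 markers called lower and medians of -2.57 and -3.05, and summed levels of 1399 to 5577 TPM in GC_WT, 258.9 to 1203 in FL_WT, 1764 to 8988 in GC_KO and 540.8 to 789.4 in FL_KO. None of the 9 B cell markers was called, and their part in the result was not tested.

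In eWAT H2-Ab1 and H2-DMa were called lower in FL_KO, where 3.98% of genes were. None of the 8 members tested was called in WT, where 13.4% of genes were, also with DESeq2 or limma or at an unadjusted p under 0.05. Without FL_WT mouse 03, the library with the B cell transcripts, 1 of the 8 was called lower in WT. H2-Ab1 was at 248.3 to 405.0 TPM (median 318.1) in GC_KO and at 245.6, 235.0, 192.8, 304.6 and 236.7 TPM in FL_KO, with 4 of 5 flight mice below every ground mouse (-0.39 ± 0.11, edgeR adjusted p = 0.0329). H2-DMa was at 19.6 to 32.4 TPM (median 27.6) and at 18.6, 19.95, 15.4, 23.4 and 21.1 TPM, with overlap (-0.43 ± 0.12, adjusted p = 0.0259). All 8 members tested were below 0, with a median of -0.37.

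Both eWAT calls were lost without FL_KO mouse 02, FL_KO mouse 09, GC_KO mouse 09 or GC_KO mouse 12, and there were 4 calls without FL_KO mouse 11 or GC_KO mouse 02. Both were also lost with limma at either pseudocount and with mouse 04 included, where the median was -0.26. There was 1 call with no filter on low counts or with the groups of the contrast alone, and 4 with DESeq2. The dendritic markers summed to 19.6 to 45.6 TPM in GC_KO and 22.7 to 32.2 TPM in FL_KO, and the FL_KO range lay inside that of GC_KO. Among them Clec9a, a marker of cross-presenting dendritic cells, was at -1.21 in the same comparison (edgeR adjusted p = 0.0104). The directions of the other dendritic markers in eWAT are not given here, so Clec9a does not stand for the list. The part of dendritic cells was not tested. In WT eWAT, FL_WT mouse 03 held the highest H2-Ob (5.88 TPM, next 1.18) and the highest H2-DMa (38.9 TPM, next 25.5), and it is the library with the B cell transcripts.

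In iBAT no member was called by edgeR in either genotype, among 7 tested, where 19.2% of genes in WT and 33.5% in KO were called. At an unadjusted p under 0.05 there was none in WT and 1 in KO (43.2% of genes), Cd74, which was at 26.9 to 62.7 TPM (median 50.2) in GC_KO and at 102.8, 74.4, 73.8, 107.3 and 90.0 TPM in FL_KO (0.45 ± 0.19, adjusted p = 0.0757). The 5 flight mice were above every ground mouse, as for 5 of the 7 members, where 34% of all genes tested were higher without overlap. This tissue depends on the scale: the median of all genes shifted by 0.33 on the TPM scale in KO and 0.24 in WT, and limma on log2(TPM + 1) called 4 of 4 members higher in KO and 1 of 4, Cd74, in WT. For limma the share of all genes called in iBAT is not given here, so these counts cannot be set against it. DESeq2 called none. The 3 libraries with muscle transcripts were FL_WT mice 06 and 08 and FL_KO mouse 11. Without them edgeR again called none, where 15.2% and 31.4% of genes were called. In KO, edgeR called 1 member higher with mouse 04 included, with the mouse number as a block, or without GC_KO mouse 11.

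Macrophage markers in iBAT summed to 40.9 to 104.5 TPM in GC_WT, 65.8 to 108.2 in FL_WT, 36.1 to 63.2 in GC_KO and 78.1 to 153.6 in FL_KO, without overlap in KO, on the TPM scale where the median of all genes shifted by 0.33. Their part in the higher TPM of the class II genes was not tested. In TpB, MdB, Kid and Cbr edgeR called no member between flight and ground in either genotype, where the genes called were 0% in TpB and MdB, 0.119% (WT) and 0.159% (KO) in Kid, and 0.0244% and 0.0061% in Cbr. limma called none, and DESeq2 called 1 member lower in KO Kid. At an unadjusted p under 0.05 there were 1 member lower in WT Kid (6.64% of genes in either direction), 5 lower in KO Kid (12.8%), 1 lower in KO Cbr (5.52%) and 1 higher in KO TpB (2.67%). The last was H2-Oa (1.2), which stood at 10.4 TPM in FL_KO mouse 09 and 1.02 to 4.10 TPM in the other 4 flight mice, against 0.51 to 2.20 TPM in GC_KO. The same TpB library held 899 TPM of Cd74 and 18.9 TPM of H2-Ob, and its group had summed B cell markers of 24.7 to 302.6 TPM.

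The comparison of KO with WT mice asks what loss of Nrf2 does on the ground and in flight. On the ground 4 of 71 pairs were called, all lower in KO, and with DESeq2 8. Over all genes in the 9 tissues edgeR called 0.814% of pairs lower, and the share for DESeq2 is not given here. In Thy H2-Aa was at 192 to 307 TPM (median 237) in GC_WT and 150 to 211 TPM (median 190) in GC_KO, with overlap (-0.30 ± 0.080, edgeR adjusted p = 0.0325). H2-Eb1 (-0.29 ± 0.077, adjusted p = 0.0337) and H2-Ab1 (-0.26 ± 0.074, adjusted p = 0.0488) were also called, where 1.13% of genes were called lower, while Cd74, at -0.028 ± 0.074, was not (adjusted p = 0.881). No thymus call was left without GC_KO mouse 04, GC_KO mouse 09, GC_WT mouse 05 or GC_WT mouse 10, and 1 without GC_KO mouse 02.

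The ratio of Cd74 to H2-Ab1 in Thy was 1.71 to 1.82 in GC_WT and 1.73 to 1.78 in FL_WT, and 1.97 to 2.17 in GC_KO and 2.03 to 2.19 in FL_KO. It thus separated the genotypes in every mouse, and the flight and ground ranges of each genotype overlapped; this comparison was chosen after its values were seen and was not tested. In Spl the same ratio was 3.68 to 3.93 in GC_WT and 3.65 to 3.93 in GC_KO, and did not separate them. In Kid it was 2.31 to 2.69 in GC_WT and 2.76 to 3.12 in GC_KO, without overlap (3 mice each), while FL_WT, at 2.32 to 2.69, met FL_KO, at 2.69 to 2.93. In the other 6 tissues the ranges of GC_WT and GC_KO overlapped. The fourth ground call was H2-Eb1 in Spl, at 1913 to 2246 TPM (median 1982) in GC_WT and 1634 to 1944 TPM (median 1803) in GC_KO (-0.16 ± 0.039, adjusted p = 0.0483), where 0.538% of genes were called lower. It held in 9 of 23 fits with a mouse left out.

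In flight 1 pair of the 71 was called higher and 3 lower in KO than in WT. Over all genes in the 9 tissues 0.5% of pairs were called higher and 0.855% lower. H2-DMb1 in Liv was at 0.61 to 1.51 TPM (median 1.04) in FL_WT and at 2.80, 2.05, 2.47, 2.23 and 2.27 TPM in FL_KO. The ranges did not overlap, as for 2% of genes in this direction. The change was 1.08 ± 0.25 (edgeR adjusted p = 0.0141), where 1.36% of genes were called higher. H2-Eb1 in Spl was at 1802 to 2049 TPM (median 1865) in FL_WT and at 1625, 1631, 1628, 1471 and 1613 TPM in FL_KO, without overlap (-0.19 ± 0.041, adjusted p = 0.0134), where 0.662% of genes were called lower. The H2-Eb1 call was lost without FL_KO mouse 11. In these spleens 6 of the 9 members were lower in KO without overlap, as were 1.94% of genes. DESeq2 called 6, and its share over all genes is not given here.

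In Kid, with 3 mice per group, H2-Ab1 was at 90.3, 93.9 and 110 TPM in FL_WT and at 68.6, 63.2 and 66.8 TPM in FL_KO (-0.58 ± 0.12, edgeR adjusted p = 0.0233). H2-DMa was at 7.46, 6.85 and 5.88 TPM in FL_WT and at 3.92, 3.50 and 4.68 TPM in FL_KO (-0.75 ± 0.16, adjusted p = 0.031), where 1.32% of genes were called lower. Of the 8 members tested in Kid, 7 were lower in KO flight mice without overlap, as were 6.83% of genes, and Ciita was at 1.31, 1.22 and 1.32 TPM against 0.35, 0.34 and 1.01 TPM (-1.16 ± 0.32, adjusted p = 0.102). No call was left without FL_KO mouse 02 or FL_WT mouse 08, and 1 without FL_KO mouse 01, FL_WT mouse 05 or FL_WT mouse 10. Dendritic markers summed to 6.96 to 8.95 TPM in FL_WT and 5.29 to 6.26 in FL_KO, with Itgax called lower (-0.93), and macrophage markers to 103.8 to 106.8 and 108.1 to 120.6 TPM; their part was not tested.

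Whether the flight response differed between genotypes was tested as an interaction, (FL_KO - GC_KO) - (FL_WT - GC_WT). No member was called in any tissue by edgeR, DESeq2 or limma, and edgeR called 0 genes of any kind, so the larger Thy changes in KO than in WT were not shown to differ. At an unadjusted p under 0.05 there were 8 pairs higher and 3 lower, and 7 of the higher were in Thy, where 8.23% of genes passed in either direction. All 9 members had an interaction above 0 in Thy, with H2-Ob at 0.63 ± 0.15 (edgeR adjusted p = 0.311), H2-Eb1 at 0.42 ± 0.11 (adjusted p = 0.361) and H2-Aa at 0.41 ± 0.12 (adjusted p = 0.369). H2-Ob and H2-Eb1 were called without FL_WT mouse 06, at 0.71 and 0.50. In Liv H2-DMb1 was at 0.81 ± 0.33 (adjusted p = 1).

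The members also varied together between mice of the same group. The mean log2(TPM + 1) of H2-Aa, H2-Ab1, H2-Eb1 and Cd74 was taken as a reference, and the deviation of each mouse from its group mean was compared over 184 libraries. Genes of 1 library share its depth and tissue piece, so these values are descriptions. Pearson's r with the reference was 0.96 for H2-Eb1 and Cd74 and 0.94 for H2-Ab1 and H2-Aa, which are in the reference themselves, 0.72 for Ciita, 0.69 for H2-DMa, 0.65 for H2-DMb1, 0.53 for H2-Ob and 0.51 for H2-Oa. Ciita followed the reference in TpB (0.94), eWAT (0.85), Thy (0.80) and Liv (0.76), and less in Kid (0.17), MdB (0.047) and Cbr (-0.15).

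Among 11492 genes compared, the most alike within groups were Mpeg1 (r = 0.72), Laptm5 (0.72), Irf8 (0.72), Ctsc (0.71), H2-K1 (0.70) and Myo1f (0.70). These values pool all tissues, and r varied between tissues. It ran from 0.85 (Myo1f) to 0.95 (Ctsc) in TpB. In Spl it ran from -0.081 (Laptm5) and 0.037 (H2-K1) to 0.46 (Irf8), and in Cbr from -0.055 (Laptm5) to 0.36 (Myo1f). Mpeg1 encodes the macrophage pore protein perforin-2, Irf8 is a transcription factor of dendritic cells and macrophages, Ctsc is a lysosomal cysteine protease and H2-K1 is a class I heavy chain. Across the 9 tissue means of GC_WT mice, among 17203 genes, the most alike were Limd1 (0.98), Zfp217 (0.97), Stat6 (0.97), Gimap4 (0.97), Tln1 (0.97) and Itpripl1 (0.96). The members themselves ranged from 0.79 for H2-DMa and H2-Oa to above 0.99 for the 4 reference genes. With 9 points and Spl far above the rest, they are shown as descriptions.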

How the data were processed

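RNA-seq values of 192 libraries from 9 tissues were used as the authors deposited them. The authors' expected counts per gene (RSEM 1.3.1 after STAR 2.6.1 alignment to mm10, as the submitters' processing notes name them) were rounded to whole numbers, since 6.01% were not whole. The deposited TPM values (length-normalized, from the same estimates) were used for levels, and the FPKM columns were not used. The strand setting of the counting is not given in the sources used here.

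The 9 members were taken by gene name. The members and gene lists were chosen with earlier results of these data known. In each tissue the 4 groups were fitted together with edgeR 4.0.16 (R 4.3.3; TMM, filterByExpr by group, quasi-likelihood test), with Benjamini-Hochberg adjustment over all genes of the tissue, at 0.05. Each library is a separate mouse. The code was tested on simulated data. The genes named from marker and pathway lists were at most 2 per list, tissue and comparison with the smallest adjusted p among those called; paralogs of the members were also named, and 1 gene that the rule would name is not reported here. Also run were limma 3.58.1 on log2(TPM + 1) or log2(TPM + 0.1) for genes of at least 5 TPM, DESeq2 1.42.0, no filter on low counts, the groups of a comparison alone, mouse 04 included, a block for the mouse number, and each mouse left out.

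Flight and ground mice of 1 number are different animals. Deviations of same-numbered libraries correlated above 0.1 in every pair only in KO liver among tissues with 3 or more pairs (5 pairs, r of 0.222 to 0.369), where the block left 4 calls as without it.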

Additional observations from a re-analysis of the deposited data

Results flagged for a closer look

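In 14 of 220 groups of 4 to 10 mice 1 mouse stood apart from the rest by Dixon's criterion, where chance gives about 1 in 20. They are given as TPM, with the next mouse in the same group.

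In Spl, GC_WT mouse 10 had 2286 TPM of H2-Aa (next 2032) and 252 TPM of H2-DMa (next 229), and FL_KO mouse 11 had 1228 TPM of H2-Aa (next 1586) and 1471 TPM of H2-Eb1 (next 1613). In iBAT, GC_WT mouse 08 was highest for H2-Aa with 28.1 TPM (next 17.9), H2-Ab1 with 35.0 TPM (next 23.5) and Cd74 with 98.9 TPM (next 61.3). In eWAT, FL_WT mouse 03, whose library held the B cell transcripts, was highest for H2-DMa with 38.9 TPM (next 25.5) and H2-Ob with 5.88 TPM (next 1.18), and GC_WT mouse 03 was lowest for Cd74 with 689 TPM (next 828).

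In Thy, FL_KO mouse 12 had the lowest H2-Aa of its group, 285 TPM (next 340). In Cbr, FL_WT mouse 07 had 3.04 TPM of H2-Aa (next 1.83) and FL_WT mouse 03 had 0.65 TPM of H2-DMb1 (next 1.61). In TpB, FL_KO mouse 09 had 6.47 TPM of Ciita (next 2.22).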

How the results depend on the processing

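Counts below are of the 71 pairs of member and tissue, and tissues that could not be refitted under a setting kept their values. Shares over all genes were given for edgeR only, so the limma and DESeq2 counts have no such share beside them. Of the 36 calls of a member in a tissue and comparison, none reversed under an alternative or with a mouse left out. Their refits kept the call 234 times and lost it 38 times under the alternatives, and 686 and 120 times with a mouse left out. Pairs that gained a call enter only the counts that follow. For FL_WT against GC_WT the 5 higher became 10 with limma at either pseudocount, and the 7 lower became 2 with limma at either pseudocount and 4 with no filter on low counts. For FL_KO against GC_KO the 9 higher, all in Thy, were kept by limma at either pseudocount, which also called 4 higher in iBAT. With mouse 04 included 1 member was also called higher in iBAT. The 7 lower became 12 with DESeq2 and 2 with the groups of the contrast alone. For GC_KO against GC_WT the 4 lower became 8 with DESeq2, 0 with limma at either pseudocount and 1 with the groups of the contrast alone. For FL_KO against FL_WT the 1 higher became 2 with DESeq2 and 0 with limma, and the 3 lower became 11 with DESeq2, 9 with limma on log2(TPM + 1), 8 on log2(TPM + 0.1), 5 with no filter and 6 with mouse 04 included. limma tested fewer members because of its 5 TPM minimum; the cause of the other shifts was not tested.

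With each of the 23 mice left out in turn, the counts ranged from 3 to 8 higher and 4 to 8 lower for FL_WT against GC_WT, 9 to 10 higher and 1 to 10 lower for FL_KO against GC_KO, 0 to 1 higher and 0 to 5 lower for GC_KO against GC_WT, 1 to 2 higher and 1 to 7 lower for FL_KO against FL_WT, and 0 to 2 higher and 0 lower for the interaction. With the mouse number as a replicate block there were 5 higher and 6 lower in WT, 10 higher and 7 lower in KO, and 0 in either direction for the interaction. Both Spl calls of Ciita were lost with the block. In every tissue, KO liver included, flight and ground mice of 1 number are different animals.

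Rescaled to genes other than ribosomal protein, mitochondrial and small RNA genes, Cd74 moved by more than 1 SD to 493.9 in TpB, 208.5 in MdB, 13516 in Spl, 998 in eWAT, 96.98 in iBAT, 1716 in Thy and 326.1 in Kid of GC_WT, and to 11305 in Spl, 831.6 in eWAT, 143.4 in iBAT, 2957 in Thy and 237.2 in Kid of FL_KO. Members under the filter on low counts, such as H2-Oa outside Spl, Thy and TpB, entered only the fit without that filter.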
